A study of Mus musculus with 6 samples.

Results

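The genes of the proteasome, the particle that degrades ubiquitin-tagged proteins, were followed in mouse liver cells over a treatment sampled at week 0, week 2 and week 7. Members were the protein-coding genes whose GENCODE symbol runs from Psma to Psmg followed by a number, with at least 10 counts in each of the 6 libraries. The pattern took in 50 symbols, and 48 of them passed the count minimum, out of 54446 genes in the table. Of the 48, 3 encode the catalytic subunits of the immunoproteasome (Psmb8, Psmb9 and Psmb10) and 45 are the other members. The 2 left out were Psma8, a germ-cell alpha subunit with 22 and 19 counts at week 0, then 16 and 22 at week 2 and lastly 0 and 12 at week 7, and Psmb11, the thymus subunit, with 0 counts in every library. The member nearest the minimum was Psme2b, with 23 to 34 counts per library. Psmc3ip meets the letters of the pattern but encodes a meiotic recombination factor, and it is described apart.

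The series title names the treatment as MET/CAT and SB transposase; MET is the receptor of hepatocyte growth factor, SB a transposase that inserts DNA into a genome, and CAT is not expanded in the labels. Each week has 2 libraries of liver cells, and week 0 is the group that the other weeks are set against. The labels give no age, no genotype and no untreated mice at weeks 2 and 7, and do not say whether the 2 samples of a week came from separate animals, so p-values measure only the spread between these samples. The strain label of week 0 replicate 1 is a mixed FVB/N and C57BL/6 line; in the other labels the number after the second strain's name goes up by 2 from each sample to the next, so that background is unsure. Library totals lay between 49353453 and 58434358 deposited counts. Both week 2 libraries had 12804 or more Xist counts and 0 counts of 4 Y-linked genes, whereas the week 0 and week 7 libraries had at most 15 Xist counts and 1897 or more counts of Y-linked Ddx3y. Week 2 therefore differs from both other weeks in time and in sex together, which cannot be told apart. All 7 hepatocyte markers were present, at a summed level of 83100 to 120000 CPM (counts relative to library size, after TMM scaling for composition).

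The proteasome is built from a 20S core of stacked rings, with outer alpha rings and inner beta rings that hold the active sites, and from a 19S cap that binds ubiquitin chains, unfolds the substrate with 6 ATPases and feeds it into the core. Psmb5, Psmb6 and Psmb7 carry the chymotrypsin-like, caspase-like and trypsin-like active sites. Under interferon, cells make Psmb8, Psmb9 and Psmb10, which take the places of Psmb5, Psmb6 and Psmb7 in newly assembled particles and change which peptides are made for display on MHC class I. Genes of the constitutive particle are known to be raised together by the transcription factor Nfe2l1 (also called Nrf1) when degradation falls short.

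Most proteasome genes kept nearly the same RNA level over the 7 weeks, and the increases called against week 0 were in Psmb9 at both times, Psmb8 at week 2 and Psmd5 at week 7. The summed level of all 48 members was 3310 and 3210 CPM at week 0, then 3230 in both week 2 libraries and 3180 in both taken at week 7. Of these sums the 3 immunoproteasome genes made up 77.9 and 73.3 CPM at week 0, then 95.5 and 110 at week 2 and lastly 90.4 and 90.1 at week 7. The immunoproteasome sum was higher in all 4 later libraries than in both week 0 libraries, while the sum over the other 45 members was 3230 and 3140 CPM at week 0 and between 3080 and 3140 later. In these bulk samples, fewer cells of a type and less RNA per cell cannot be told apart.

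A change was called where the adjusted p of edgeR's quasi-likelihood test, Benjamini-Hochberg over 15368 genes, was under 0.05. At week 7 against week 0, 2 of 48 members were called higher (Psmb9 and Psmd5), against 7.58% of all genes tested, and 1 was called lower (Psma4), against 6.23% of all genes. At week 2 against week 0, 2 were higher (Psmb8 and Psmb9), against 9.81% of all genes, and 5 were lower (Psmd6, Psmc2, Psma5, Psmd2 and Psme4), against 8.81%. At week 7 against week 2, 2 were higher (Psmd5 and Psmc4), against 10.1%, and 2 were lower (Psmg4 and Psmb7), against 9.73%; taken in either direction, 19.8% of all genes were called there. The 3 comparisons share libraries pair by pair, so their calls are not independent. At an unadjusted p under 0.05 the counts were 3 higher and 3 lower at week 7 against week 0, 3 and 10 at week 2 against week 0, and 9 and 8 at week 7 against week 2. Leaving out 1 library of a comparison moved these counts: the 5 lower calls at week 2 became 0 without week 0 replicate 1, 0 without week 0 replicate 2, 1 (Psme3) without week 2 replicate 1 and 0 without week 2 replicate 2. The 2 higher calls at week 7 became 0 without week 0 replicate 1 and 0 without week 7 replicate 1, and 1 when week 0 replicate 2 or week 7 replicate 2 was left out. The lower call at week 7 (Psma4) was lost when any 1 of the 4 libraries compared was left out. Against week 2, the 2 higher and the 2 lower calls at week 7 both became 0 without week 2 replicate 1. Without week 7 replicate 1 they became 1 (Psme4) and 0, without week 2 replicate 2 they became 1 each, and without week 7 replicate 2 the lower count became 1 (Psmc6).

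The members also moved by small amounts. The median size of the log2 fold change, without its sign, was 0.0723 over the members at week 7 against week 0, 0.281 over all genes tested, and 0.186 over the 7598 genes with a mean of at least 500 counts. At week 2 against week 0 these medians were 0.122, 0.318 and 0.206, and at week 7 against week 2 they were 0.133, 0.323 and 0.217. A log2 fold change within 0.25 of 0 was found for 41 members (85.4%) at week 7 and 42 (87.5%) at week 2, both against week 0, where 62% and 57.7% of the genes with at least 500 counts were that close. At week 7, 8 of 48 members had both libraries above both week 0 libraries (28.2% of all genes) and 15 had both below (27.8%). At week 2 these counts were 11 above (31.4%) and 16 below (28.8%). Against week 2, week 7 had 15 members above (30.3%) and 16 below (30.8%).

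**Figure D1:**
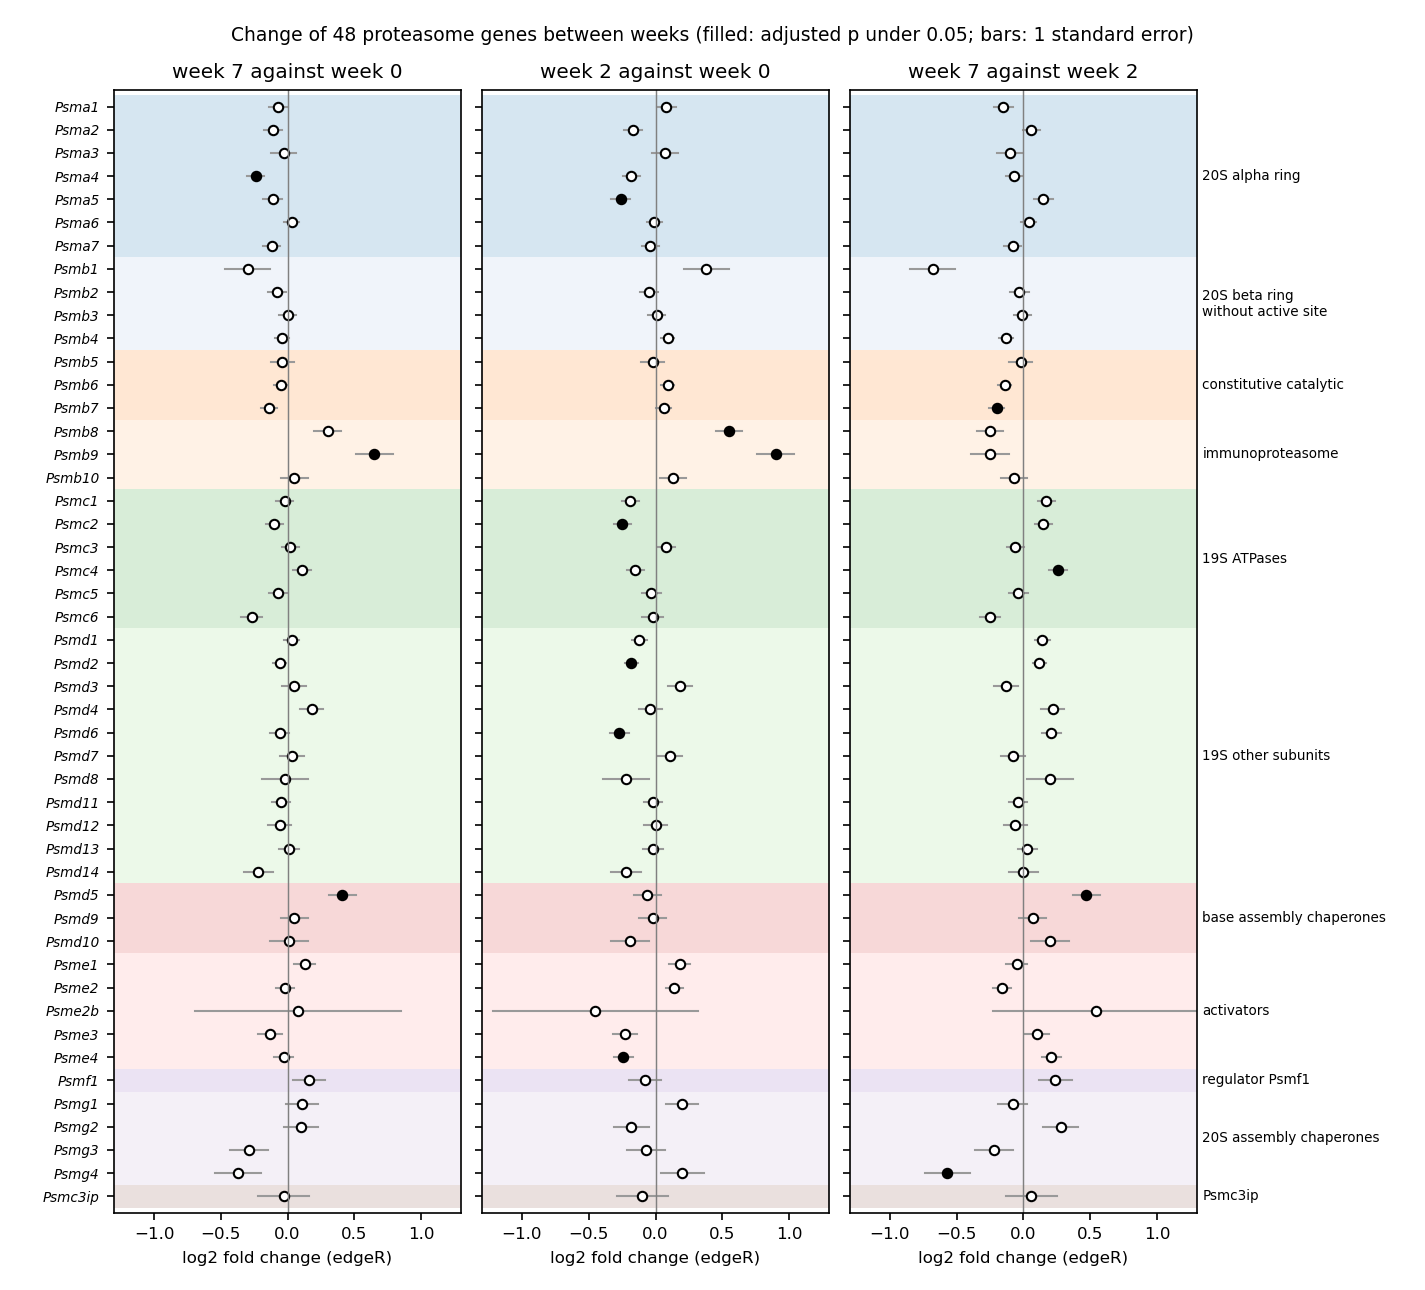
Log2 fold change (horizontal axis) of each of the 48 members, grouped by role, in the 3 comparisons; points are edgeR estimates, bars 1 standard error, and filled points had an adjusted p under 0.05. Psmb9 and Psmb8 lie farthest to the right at week 2 (0.90 and 0.55), most other points lie within 0.25 of 0, and the bar of Psme2b at week 7 against week 2 runs past the edge.

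The constitutive catalytic subunits did not pass the test at either time against week 0. Psmb5 (chromosome 14), with the chymotrypsin-like site, was at 54.2 and 49.4 CPM at week 0, then 48.2 and 54.0 at week 2 and lastly 51.4 and 49.1 at week 7. Psmb6 (chromosome 11), with the caspase-like site, was at 149 and 151 CPM, then 163 and 157, then 148 and 143. Psmb7 (chromosome 2), with the trypsin-like site, was at 122 and 127 CPM, then 135 and 124, then 113 in both week 7 libraries. The weeks overlapped for Psmb5, Psmb6 was above week 0 in both week 2 libraries and below it in both week 7 libraries, and Psmb7 was lowest in the week 7 pair. Log2 fold changes at week 7 against week 0 were -0.04 for Psmb5, -0.05 for Psmb6 and -0.14 for Psmb7 (edgeR adjusted p = 0.821, 0.59 and 0.163). Psmb7 was lower at week 7 than at week 2 by a log2 fold change of -0.20 (SE 0.058, edgeR adjusted p = 0.0443). That call was lost when any 1 library other than week 2 replicate 2 was left out. It was also lost with only the 4 libraries compared (edgeR adjusted p = 0.0686) and with a replicate block (0.0763). Part of Psmb7 (405 exon bases, 11.8% of its exons) lies over exons of Nek6 on the other strand, and the kit does not mark strand, so reads there cannot be told apart.

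Psmb8 and Psmb9, neighbours on chromosome 17, rose at week 2, and Psmb9 was also higher at week 7. Psmb8 (ENSMUSG00000024338), which replaces Psmb5, was at 37.4 and 34.1 CPM at week 0, then 47.9 and 57.0 at week 2 and lastly 45.4 and 42.8 at week 7. All 4 later libraries were above both week 0 libraries, and week 2 was above week 7. Its mean went from 35.7 ± 2.33 CPM (SD, n = 2) at week 0 to 52.5 ± 6.42 (n = 2) at week 2 and 44.1 ± 1.78 (n = 2) at week 7. The log2 fold change was 0.55 at week 2 (SE 0.10, edgeR adjusted p = 0.00546), and 0.30 at week 7 (SE 0.10, adjusted p = 0.0864), which missed the threshold. The week 2 call stood in all 16 alternative fits, at adjusted p up to 0.0398, and the week 7 value passed in 0 of 16.

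Psmb9 (ENSMUSG00000096727), which replaces Psmb6, had the lowest level of the 3 and the largest increase. Its level was 9.35 and 8.64 CPM at week 0 (467 and 417 counts), then 16.0 and 17.6 at week 2 (960 and 1042 counts) and lastly 15.2 and 13.0 at week 7 (819 and 664 counts). Every later library was above both week 0 libraries, and the week 2 pair was above the week 7 pair. Means were 9.0 ± 0.502 CPM (SD, n = 2), 16.8 ± 1.12 (n = 2) and 14.1 ± 1.54 (n = 2). The increase was 1.87-fold at week 2 (log2 0.90, SE 0.14, edgeR adjusted p = 0.00234) and 1.56-fold at week 7 (log2 0.65, SE 0.14, adjusted p = 0.0171). The week 2 call stood in all 16 alternative fits, at adjusted p up to 0.0215. The week 7 call stood in 13 of 16 and was lost without week 0 replicate 1 (adjusted p = 0.0521), week 0 replicate 2 (0.0863) or week 7 replicate 1 (0.102). Psmb9 shares 212 exon bases, 5.79% of its exons, with Tap1 on the other strand, where reads of the pair cannot be told apart. Tap1, a subunit of the transporter that carries peptides to MHC class I, was at 5.97 and 7.15 CPM at week 0, then 7.30 and 7.78 at week 2 and lastly 10.4 and 13.4 at week 7. Tap1 had a log2 fold change of 0.20 at week 2 (edgeR adjusted p = 0.522) and 0.86 at week 7 (adjusted p = 0.0153; lost without week 0 replicate 1, 0.0893, or week 7 replicate 2, 0.0984), so the order of weeks differed from that of Psmb9.

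Psmb10 (ENSMUSG00000031897), on chromosome 8, replaces Psmb7 and passed the test in no comparison. It was at 31.2 and 30.6 CPM at week 0, then 31.5 and 35.9 at week 2 and lastly 29.9 and 34.3 at week 7. Both week 2 libraries were above both week 0 libraries, and the week 7 pair lay on either side of them. Log2 fold changes were 0.13 at week 2 (SE 0.10, edgeR adjusted p = 0.475) and 0.05 at week 7 (SE 0.10, adjusted p = 0.81). None of the 3 immunoproteasome genes passed between weeks 2 and 7, at log2 fold changes of -0.25 for Psmb8, -0.25 for Psmb9 and -0.07 for Psmb10 (adjusted p = 0.123, 0.253 and 0.716).

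**Figure D2:**
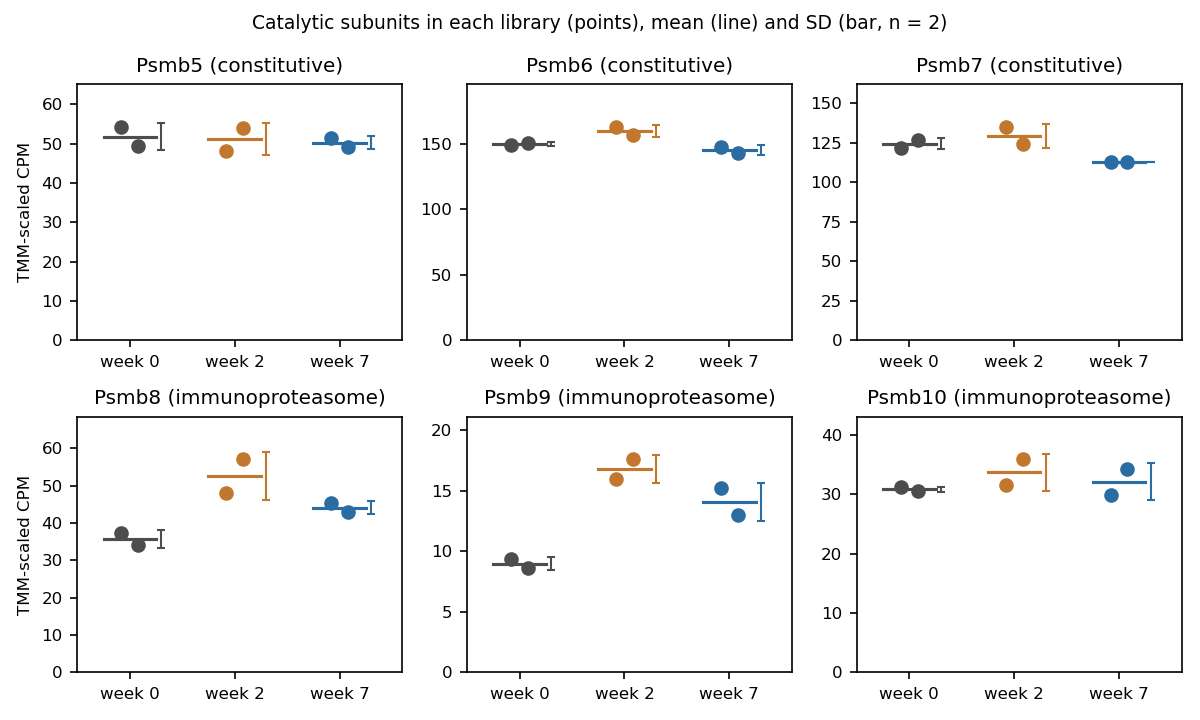
TMM-scaled CPM (vertical axes, starting at 0) of the 3 constitutive (top) and 3 immunoproteasome (bottom) catalytic subunits; points are libraries, horizontal lines means and bars SD (n = 2). Psmb9 goes from 9.35 and 8.64 CPM at week 0 to 16.0 and 17.6 at week 2, while Psmb5 stays between 48.2 and 54.2.

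Set beside the rest, the 3 immunoproteasome genes had a median log2 fold change of 0.55 at week 2 (0.13 to 0.90), where the other 45 members had a median of -0.04 (-0.45 to 0.38) and all genes tested 0.01. At week 7 the medians were 0.30 (0.05 to 0.65) for the 3, -0.03 (-0.37 to 0.41) for the other 45 and 0 for all genes. These medians describe genes that were singled out with earlier results known and carry no test. Within a library, the ratio of each immunoproteasome gene to the subunit it replaces does not depend on scaling. The log2 ratio of Psmb8 to Psmb5 counts was -0.54 and -0.53 at week 0, then -0.01 and 0.08 at week 2 and lastly -0.18 and -0.20 at week 7. The 3 weeks did not overlap, with differences of 0.57 for week 2 and 0.35 for week 7 against week 0, and -0.22 for week 7 against week 2. The log2 ratio of Psmb9 to Psmb6 was -4 and -4.13 at week 0, then -3.35 and -3.15 at week 2 and lastly -3.28 and -3.46 at week 7. Weeks 2 and 7 overlapped and both lay above week 0, by 0.81 and 0.69. The log2 ratio of Psmb10 to Psmb7 was -1.97 and -2.05, then -2.1 and -1.79, then -1.92 and -1.72. Week 7 lay above week 0 by 0.19, and week 2 overlapped both. An exact permutation test over libraries, 2-sided, gave p = 0.33 for each pair of weeks that did not overlap, the smallest p that 2 libraries against 2 allow; over these 9 comparisons no adjustment can bring it lower.

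**Figure D3:**
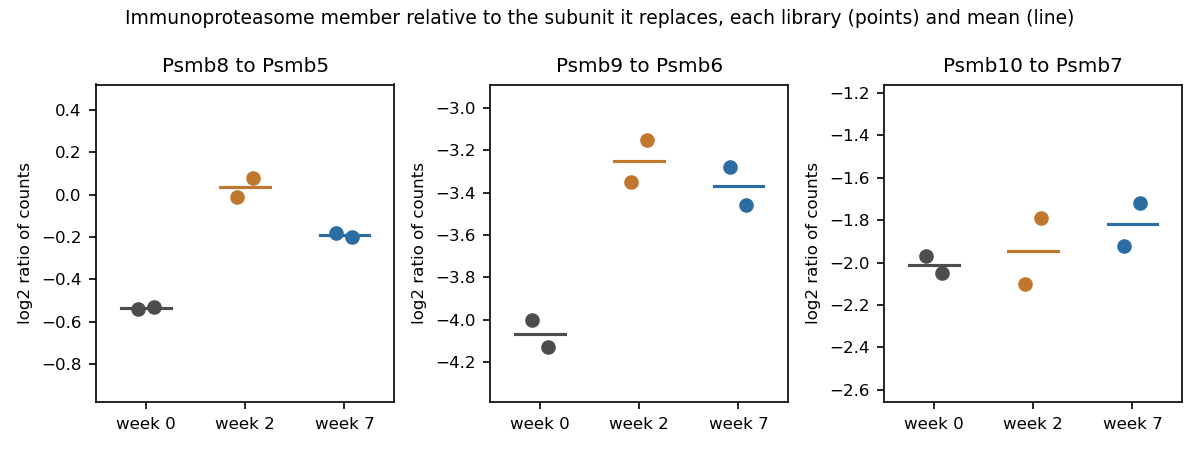
Log2 ratio of counts (vertical axes, all spanning the same range) of each immunoproteasome gene to the subunit it replaces, in each library (points) with the mean of each week (line). The ratio of Psmb8 to Psmb5 goes from -0.54 and -0.53 at week 0 to -0.01 and 0.08 at week 2, and that of Psmb10 to Psmb7 overlaps between weeks 0 and 2.

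Per kilobase of the principal GENCODE transcript, the immunoproteasome genes were the minor form in every library. Psmb8 was 27.6% of the summed level per kilobase of Psmb8 and Psmb5 in both week 0 libraries, then 35.4% and 36.8% at week 2 and lastly 32.8% and 32.5% at week 7. Psmb9 was 3.57% and 3.26% of its pair with Psmb6 at week 0, then 5.48% and 6.22% at week 2 and lastly 5.72% and 5.08% at week 7. Psmb10 was 18.4% and 17.6% of its pair with Psmb7, then 17.1% and 20.4%, then 18.9% and 21.2%. These are shares of RNA, and say nothing of the subunits in assembled particles.

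Psmb8 and Psmb9 were both called higher at week 2, and Psmb5 and Psmb6 did not pass the test against week 0. The stretches in front of these genes and Psmb10 are printed for that reason. They are the 250 bases before each start in the RefSeq table (GRCm38.p6), 5′ to 3′ in the direction of the gene, and capitals mark matches on either strand to 4 motifs: the antioxidant response element core TGACNNNGC that Nfe2l1 and its relatives bind, the IRF element (GAAA, any 2 bases, GAAA), the gamma-activated site TTCNNNGAA, and the CCAAT box. Their places are chr17:34197945-34198194 (+) for Psmb8, chr17:34187331-34187580 (-) for Psmb9, chr8:105938393-105938642 (-) for Psmb10, chr14:54617996-54618245 (-) for Psmb5 and chr11:70525107-70525356 (+) for Psmb6.
Psmb8: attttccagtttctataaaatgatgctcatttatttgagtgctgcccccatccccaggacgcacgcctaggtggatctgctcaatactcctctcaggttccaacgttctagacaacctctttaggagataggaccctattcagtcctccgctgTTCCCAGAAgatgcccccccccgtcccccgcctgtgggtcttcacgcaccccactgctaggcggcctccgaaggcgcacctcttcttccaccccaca
Psmb9: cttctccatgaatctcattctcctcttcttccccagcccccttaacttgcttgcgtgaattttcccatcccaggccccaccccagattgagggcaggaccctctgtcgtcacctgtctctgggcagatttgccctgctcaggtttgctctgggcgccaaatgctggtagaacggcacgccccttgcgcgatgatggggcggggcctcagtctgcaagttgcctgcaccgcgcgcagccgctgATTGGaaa
Psmb10: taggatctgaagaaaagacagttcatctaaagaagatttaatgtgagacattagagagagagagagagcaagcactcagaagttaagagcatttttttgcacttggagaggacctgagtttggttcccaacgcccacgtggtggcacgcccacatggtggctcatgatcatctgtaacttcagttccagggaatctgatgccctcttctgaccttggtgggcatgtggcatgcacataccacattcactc
Psmb5: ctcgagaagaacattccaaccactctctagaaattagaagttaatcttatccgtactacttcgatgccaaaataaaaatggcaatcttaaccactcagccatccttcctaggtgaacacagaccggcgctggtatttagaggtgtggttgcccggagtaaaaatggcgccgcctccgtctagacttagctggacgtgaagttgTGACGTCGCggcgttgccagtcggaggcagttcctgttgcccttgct
Psmb6: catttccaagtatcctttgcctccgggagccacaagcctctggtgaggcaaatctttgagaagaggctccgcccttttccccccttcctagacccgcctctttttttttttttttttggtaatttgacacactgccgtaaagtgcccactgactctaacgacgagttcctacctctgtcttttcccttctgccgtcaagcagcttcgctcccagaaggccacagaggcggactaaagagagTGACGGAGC
The capitals in Psmb8 are a gamma-activated site match whose first base lies 97 bases before the start, and those in Psmb9 a CCAAT box on the opposite strand 8 bases before it. Psmb5 and Psmb6 each have a match to the antioxidant response element core, 47 and 9 bases before the start, and Psmb10 has no match to the 4 motifs. No 2 matches in these 5 stretches overlap, and no stretch was available for Psmb7.

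Over all members, 41 genes had 44 promoters in that table. The antioxidant response element core was in 11.4% of member promoters and 10.2% of all 32851, and the CCAAT box in 31.8% and 33.8%. The IRF element was in 3 member promoters (6.82%, against 2.98% of all), those of Psmb3, Psmd4 and Psmd9, and the gamma-activated site was in 2 (4.55%, against 7.02%), those of Psmb8 and Psmg1. Of the genes with an IRF element match, Psmb3 had log2 fold changes of 0.01 at week 2 and 0.00 at week 7, Psmd4 -0.04 and 0.18, and Psmd9 -0.02 and 0.05, with no call. A match is a run of letters, not a shown binding site.

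In the RefSeq order of chromosome 17, Psmb9, Tap1, Psmb8 and Tap2 are neighbours within the MHC region, between H2-DMb1 and H2-Ob. Among 12 genes of class I antigen presentation, 5 were called higher and 3 lower at week 2 against week 0, and 5 and 3 at week 7. Tapbp, Tap2 and Nlrc5 were called higher at both times, and the other genes called higher differed between the times. The shares over all tested genes were 9.81% higher and 8.81% lower at week 2, and 7.58% and 6.23% at week 7. Tapbp (tapasin, which holds class I at the transporter) was at 43.4 and 45.9 CPM at week 0, then 68.5 and 66.2 at week 2 and lastly 63.5 and 61.0 at week 7, with log2 fold changes of 0.59 and 0.48 (edgeR adjusted p = 0.000491 and 0.00277). Tap2, the partner of Tap1, rose by 0.55 on the log2 scale at week 2 and by 0.43 at week 7 (adjusted p = 0.00268 and 0.0132). At week 7 the Tap2 call was lost without week 0 replicate 1 (0.068), week 0 replicate 2 (0.0534) or week 7 replicate 1 (0.0817). Nlrc5, the activator of class I genes, was at 3.06 and 4.95 CPM at week 0 and between 7.61 and 9.33 in the 4 later libraries, none of which overlapped week 0. On the log2 scale Nlrc5 changed by 0.99 at week 2 and 1.12 at week 7 (adjusted p = 0.0201 and 0.0152). The Nlrc5 calls were lost without week 0 replicate 1 at both times (0.0837 and 0.0602), without week 2 replicate 1 (0.101) or 2 (0.0644) at week 2, and without week 7 replicate 2 (0.0815) at week 7. H2-D1, a class I heavy chain, rose by 0.39 at week 2 (adjusted p = 3.17e-05) and was at 0.10 at week 7 (0.062). The 3 genes that fell at both times were the folding chaperones Calr, Canx and Pdia3, which serve many other proteins of the endoplasmic reticulum. Calr fell by 0.42 on the log2 scale at week 2 and by 0.36 at week 7.

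Of 18 tested genes of interferon signalling, 6 were called higher and 0 lower at week 2 against week 0, and 3 higher and 1 lower at week 7. Among all 15368 genes tested, higher calls came to 9.81% for week 2 and 7.58% for week 7. Lower calls came to 8.81% and 6.23%, respectively. The 19 listed genes together were at 432 and 431 CPM at week 0, then 515 and 536 at week 2 and lastly 502 and 542 at week 7. Cxcl9, a chemokine induced by interferon gamma, was at 7.15 and 8.19 CPM at week 0, then 37.3 and 39.3 at week 2 and lastly 19.6 and 24.7 at week 7. The Cxcl9 increase on the log2 scale was 2.32 at week 2 and 1.53 at week 7 (edgeR adjusted p = 6.08e-06 and 0.000166). Gbp2, a guanylate-binding protein, rose by 1.47 at week 2 (adjusted p = 3.00e-04) and was at 0.24 at week 7 (0.404). Irf1, the factor known to induce Psmb9 under interferon, was at 32.9 and 33.6 CPM at week 0, then 41.0 in both week 2 libraries and lastly 26.4 and 25.2. Irf1 rose by 0.30 on the log2 scale at week 2 (edgeR adjusted p = 0.0332) and fell by 0.37 at week 7 (edgeR adjusted p = 0.0187). Whether Irf1 had a part in the level of Psmb9 was not tested. Both Irf1 calls were lost when any of the 4 libraries compared was left out. The week 2 call was also lost with a replicate block (edgeR adjusted p = 0.0602). Ifng itself was at or below 0.0782 CPM in every library and was not tested.

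Immune cells carry immunoproteasome RNA. Calls among immune cell markers were all higher at week 2 and mostly lower at week 7. Over all tested genes, 9.81% were called higher and 8.81% lower at week 2, and 7.58% and 6.23% at week 7. All 4 pan-leukocyte markers (Ptprc, Cd52, Coro1a, Laptm5) were called higher at week 2, with a summed level of 23.9 and 29.3 CPM at week 0, then 48.4 and 51.6 at week 2 and lastly 30.7 and 28.8 at week 7, when 1 of 4 (Cd52) was called higher. Of 6 Kupffer cell markers, 4 were higher at week 2 and 5 lower at week 7, with sums of 327 and 324, then 443 and 437, then 236 and 235 CPM. Of 6 macrophage and monocyte markers, 3 were higher at week 2 and 2 lower at week 7, with sums of 147 and 146, then 235 and 240, then 128 and 124. None of 8 T and NK cell markers, 5 tested dendritic cell markers or 3 tested neutrophil markers was called. T and NK cell sums were 4.33 and 4.97 CPM, then 10.7 and 9.84, then 4.54 and 5.61, with Trac at 0 in both week 0 libraries and in week 7 replicate 2. Dendritic cell sums were 6.37 and 5.66, then 10.2 and 9.01, then 5.80 and 5.06. Neutrophil sums lay between 0.645 and 1.97 CPM, with Ly6g at 0 in every library. B and plasma cell sums were 2.08 and 0.954, then 4.87 and 5.42, then 6.83 and 7.33, with 1 of 6 called, lower, at week 7. The gene called was Ms4a1, with 19 and 11 counts at week 0 and 0 in both week 7 libraries. Jchain made up 5.35 and 4.85 CPM of the week 7 sums. Of 5 endothelial markers, 2 were higher at week 2 and 1 lower at week 7; of 5 stellate cell markers, 4 were higher and 1 lower at week 2, and 1 higher and 4 lower at week 7. Of 4 cholangiocyte markers, 1 was higher at each time. Of the 7 hepatocyte markers, 1 was higher and 5 lower at week 2, and 1 higher and 4 lower at week 7. The part of these cell types in the levels of Psmb8 and Psmb9 was not tested.

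**Figure D4:**
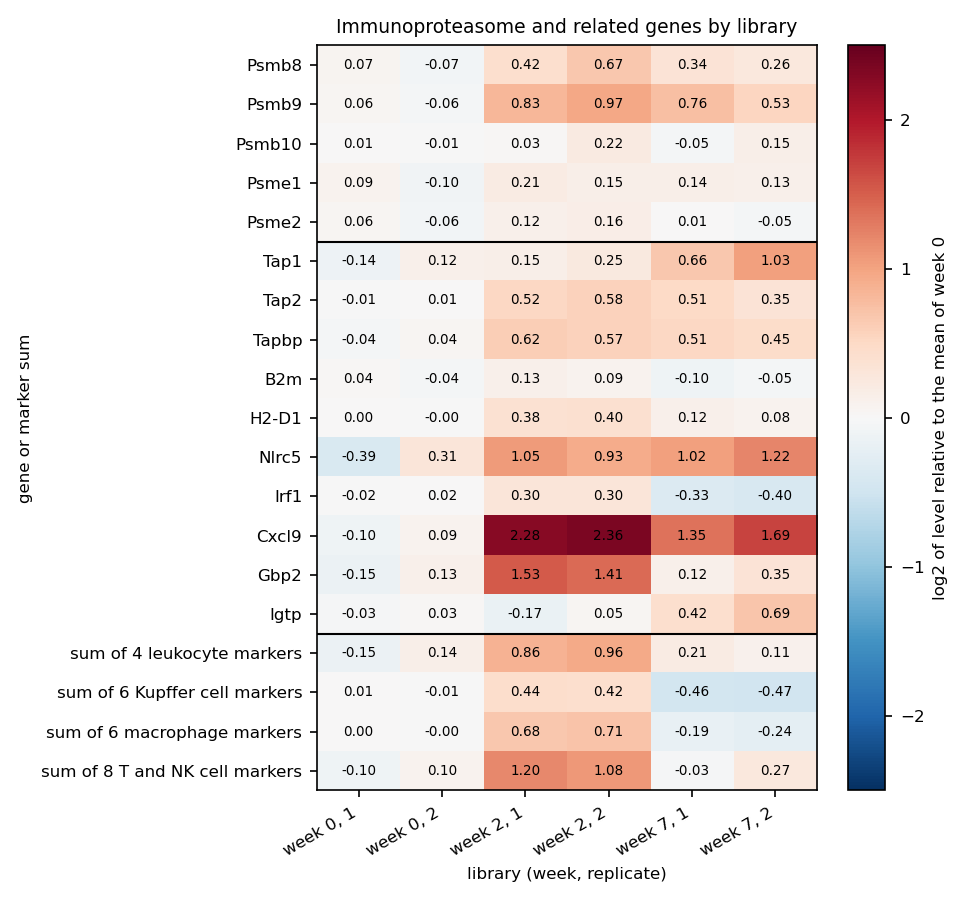
Log2 of the level in each library (columns) relative to the mean of the 2 week 0 libraries, for immunoproteasome members and the activators Psme1 and Psme2 (top), genes of class I presentation and interferon signalling (middle), and summed marker levels (bottom). Psmb9 is at 0.83 and 0.97 at week 2 and at 0.76 and 0.53 at week 7, while the sum of 4 leukocyte markers is at 0.86 and 0.96 and then at 0.21 and 0.11.

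Among the activators that open the core, Psme1 and Psme2 (the interferon-inducible PA28 alpha and beta) did not pass the test. Psme1 was at 63.7 and 56.0 CPM at week 0, then 69.2 and 66.6 at week 2 and lastly 65.8 and 65.7 at week 7. Psme2 was at 86.0 and 79.3, then 89.8 and 92.3, then 83.0 and 79.8. Both were above week 0 in both week 2 libraries, with log2 fold changes of 0.18 and 0.14 (edgeR adjusted p = 0.153 and 0.188); with scaling by total counts alone both passed, at 0.27 and 0.23 (adjusted p = 0.0364 and 0.0416). Psme4, which encodes PA200, fell at week 2, from 125 and 116 CPM to 103 and 101, and was at 111 and 125 at week 7. Its log2 fold change at week 2 was -0.24 (SE 0.071, adjusted p = 0.0445). Psme3, the nuclear PA28 gamma, had a log2 fold change of -0.23 at week 2 and -0.13 at week 7 (adjusted p = 0.108 and 0.409). Psme2b, a copy of Psme2 with 23 to 34 counts in a library, is too low for a comparison, with a standard error of 0.77. Psmf1, which encodes the regulator PI31, was at 23.0 and 26.2, then 22.4 and 24.2, then 30.1 and 25 CPM and was not called.

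In the 20S alpha ring, which gates the core, 6 of 7 genes had a negative log2 fold change at week 7 (median -0.11) and 1 passed. Of all 15368 genes tested, 7643 had a negative value at week 7 and 6.23% were called lower. Psma4 was at 107 and 102 CPM at week 0, then 95.2 and 89.8 at week 2 and lastly 89.6 and 87.1 at week 7, with week 0 above all later libraries. Its log2 fold change at week 7 was -0.24 (SE 0.061, edgeR adjusted p = 0.0307). The call was lost when any 1 of the 4 libraries compared was left out (adjusted p from 0.0697 to 0.162) and with scaling by total counts alone (0.0552). Psma5 fell at week 2, from 56.0 and 59.3 CPM to 48.1 and 47.8 (log2 -0.26, SE 0.072, adjusted p = 0.0336), and was at 52.7 and 54.1 at week 7. Psma6 had the highest log2 fold change of the ring at week 7, 0.03 (adjusted p = 0.786).

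Of the 4 beta ring genes without an active site, none passed. Psmb3 and Psmb1 had the highest and the lowest log2 fold change at week 7, 0.00 and -0.30. Psmb1 varied most between replicates of this ring, at 139 and 99.0 CPM at week 0, then 161 and 149 at week 2 and lastly 99.4 and 94.3 at week 7. Its 2 week 0 libraries lay apart, 1 near the week 2 pair and 1 near the week 7 pair. The log2 fold change of Psmb1 at week 7 against week 0 was -0.30 (SE 0.17, edgeR adjusted p = 0.369) with both week 0 libraries and -0.52 without week 0 replicate 2 (adjusted p = 0.00496). Against week 2 it was -0.68 (SE 0.17, adjusted p = 0.0658).

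Of the 6 ATPases of the cap, Psmc2 fell at week 2, from 78.3 and 81.4 CPM to 69.0 and 65.7 (log2 -0.25, SE 0.064, edgeR adjusted p = 0.0284). Psmc4 was at 70.6 and 67.7 CPM at week 0, then 62.5 and 61.8 at week 2 and lastly 76.4 and 72.7 at week 7, and it was higher at week 7 than at week 2 (log2 0.26, SE 0.066, adjusted p = 0.023). That call was lost without week 2 replicate 1, week 2 replicate 2 or week 7 replicate 1. It was also lost with upper-quartile scaling (edgeR adjusted p = 0.0597) and with total counts alone (0.0613). Psmc6 was at 68.0 and 65.9 CPM at week 0, then 66.8 and 65.0 at week 2 and lastly 52.2 and 59.0 at week 7, with the week 7 pair below all others. Its log2 fold change at week 7 was -0.27 (SE 0.078, adjusted p = 0.056), and it passed in 7 of 16 alternative fits, DESeq2 (0.0291) among them. Of the 11 other cap subunits, 2 fell at week 2 and 0 passed at week 7. Of all tested genes, 8.81% were called lower at week 2 and 13.8% in either direction at week 7. Psmd6, a subunit of the lid, went from 63.2 and 64.7 CPM to 53.0 and 52.9 (log2 -0.27, SE 0.069, adjusted p = 0.0252) and was at 59.6 and 63.0 at week 7. Psmd2, the scaffold that docks ubiquitin shuttle proteins, went from 147 and 143 CPM to 125 and 131 (log2 -0.18, SE 0.052, adjusted p = 0.0423). Psmd4, a ubiquitin receptor, and Psmd14, the deubiquitinase of the lid, were at the ends of the group at week 7, with log2 fold changes of 0.18 and -0.22 (adjusted p = 0.229 and 0.264). The 5 genes that fell at week 2 (Psma5, Psmc2, Psmd2, Psmd6 and Psme4) each lost their call when any 1 of the 4 libraries compared was left out. All but Psmd6 also lost it with upper-quartile scaling and with a replicate block. With scaling by total counts alone all 5 lost it, at edgeR adjusted p from 0.111 to 0.305. That scaling moves the median log2 fold change of all genes at week 2 from 0.01 to 0.10, and turns the split of the other 45 members from 14 positive and 31 negative into 28 and 17. At week 7 it turns 17 positive and 28 negative into 23 and 22.

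Psmd5, a chaperone that holds the ATPases during assembly of the cap, was the gene outside the immunoproteasome that rose at week 7. It was at 23.6 and 27.1 CPM at week 0, then 23.4 and 25.3 at week 2 and lastly 34.6 and 32.7 at week 7. Both week 7 libraries were above all 4 others, and weeks 0 and 2 overlapped. The log2 fold change was 0.41 against week 0 (SE 0.10, edgeR adjusted p = 0.0326) and 0.47 against week 2 (SE 0.10, adjusted p = 0.014). The call against week 0 was lost with a replicate block (edgeR adjusted p = 0.0505) and without week 0 replicate 1, week 7 replicate 1 or week 7 replicate 2. That against week 2 was lost without week 2 replicate 1 or week 7 replicate 1. The other base chaperones, Psmd9 and Psmd10 (gankyrin), had log2 fold changes of 0.05 and 0.01 at week 7 (adjusted p = 0.842 and 0.985). Of the 4 chaperones that help build the alpha ring, Psmg1 was at 0.11 and Psmg4 at -0.37 at week 7 against week 0 (adjusted p = 0.594 and 0.187). Psmg4 was at 7.89 and 9.06 CPM at week 0, then 10.4 and 9.05 at week 2 and lastly 6.72 and 6.36 at week 7, the lowest pair. It was lower at week 7 than at week 2 (log2 -0.57, SE 0.17, edgeR adjusted p = 0.0413), a call lost when any 1 of those 4 libraries was left out. The call was also lost with only those 4 libraries fitted (edgeR adjusted p = 0.052) and with a replicate block (0.0687). Psmc3ip, the recombination factor, was at 6.61 to 8.42 CPM in all libraries and had log2 fold changes of -0.10 and -0.03 at weeks 2 and 7 (adjusted p = 0.797 and 0.944).

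Levels per kilobase differed between the roles. At week 0, mean levels per kilobase were 27.5 (Psma2) to 137 (Psma7) CPM in the alpha ring, 65.8 to 127 in the beta genes without an active site, and 57.6, 107 and 188 for Psmb5, Psmb7 and Psmb6. Genes of the cap had lower medians, 48.3 for the ATPases and 35.1 for the other subunits against 59.8 in the alpha ring. Their ranges, 30 to 70 and 22.5 to 76.9, overlapped that of the alpha ring. The chaperones that leave the finished particle were at 5.75 to 15.3 (base) and 13.7 to 18.1 (core). Of the immunoproteasome genes, Psmb9 was within the range of the base chaperones at 6.66, and Psmb8 (21.9) and Psmb10 (23.6) were above all of these chaperones and below every alpha ring gene. Psmb8 was above Psmb10 later, at 32.2 against 25.7 in week 2 and 27.1 against 24.5 in week 7, and both stayed under Psmb5. At week 0 the order of that pair was the reverse, with Psmb8 at 23.0 and 20.9 and Psmb10 at 23.8 and 23.4 in the 2 libraries.

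Of 15 genes that work with the particle, 0 were called higher and 2 lower at week 7 against week 0, where 7.58% and 6.23% of all tested genes were, and 1 higher and 3 lower at week 2, against 9.81% and 8.81%. The calls in either direction at week 7 were near the share of all genes (13.8%). Pomp, the chaperone that drives maturation of the core, was at 81.3 and 78.0 CPM at week 0, then 81.7 and 79.1 at week 2 and lastly 68.9 and 62.8 at week 7. At week 7 the log2 fold change of Pomp was -0.27 (edgeR adjusted p = 0.0333), called in 9 of 16 alternative fits. The call was lost without either week 0 library, either week 2 library or week 7 replicate 2. It was also lost with total counts alone (edgeR adjusted p = 0.0611) and with only the 4 libraries compared (0.0603). Txnl1, a thioredoxin-like protein bound to the cap, fell from 112 and 107 CPM to 86.1 and 88.0 at week 2 and 84.4 and 88.9 at week 7 (log2 -0.33 and -0.34, adjusted p = 0.00483 and 0.00638). All 4 later Txnl1 libraries were below both at week 0.

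Of 10 genes of the Nfe2l1 axis, 2 were called higher and 3 lower at week 2, and 2 higher and 2 lower at week 7, both against week 0. All tested genes gave 9.81% higher and 8.81% lower at week 2, and 7.58% and 6.23% at week 7. Nfe2l1 was at 31.7 and 31.3 CPM at week 0, then 46.6 and 48.2 at week 2 and lastly 39.9 and 36.9 at week 7, with no overlap between weeks. It rose by 0.59 on the log2 scale at week 2 (edgeR adjusted p = 0.00112), and the value was 0.28 at week 7 (adjusted p = 0.0504; called in 6 of 16 alternative fits). The protein is released by cleavage, which RNA does not show. Its small Maf partner Mafk rose at both times (log2 0.81 and 0.83, adjusted p = 0.00495 and 0.00639) and Maff at week 7 (1.43, adjusted p = 0.00203). Ddi2, the protease that cleaves Nfe2l1, fell by 0.22 on the log2 scale at week 7 (adjusted p = 0.00998; lost without week 0 replicate 1, 0.0725). Syvn1, an endoplasmic reticulum ubiquitin ligase, was at 184 and 115 CPM at week 0, then 26.6 and 21.8 at week 2 and lastly 45.1 and 42.0 at week 7. Its 2 week 0 libraries differed widely but lay above all later ones, with log2 fold changes of -2.63 and -1.78 (adjusted p = 0.00783 and 0.0274). The Syvn1 call at week 7 stood in 9 of 16 alternative fits. It was lost without a filter (0.0652), with limma voom (0.0752), with only the 4 libraries compared (0.0599), and without either week 2 library (0.0738 and 0.075) or either week 7 library (0.168 and 0.169). The call at week 2 was lost without either week 2 library (0.0598 and 0.0723).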

How the data were processed

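The deposited table gives estimated counts per Ensembl gene, not scaled for depth, for 6 libraries of 49353453 to 58434358 counts. Its values are whole, so rounding changed 0 of them, but low values are unevenly spaced: in each library, 68.3 to 69.6% of the values from 4 to 43 are a multiple of 4 or 1 above one. Poly-A RNA went into TruSeq V2 libraries sequenced from both ends, per the labels' protocols. Bowtie 0.12.2 and mm8 are named in the submitters' processing notes; the counting step is not given in the sources used here. Symbols and transcript lengths came from GENCODE M21, which matched 54409 of the 54446 identifiers. Because the build behind the table is unsure, coordinates are given only for RefSeq promoters.

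In R 4.3.3, edgeR 4.0.16 was used with filterByExpr (15368 genes), TMM scaling and robust quasi-likelihood tests, 2-sided, with all 6 libraries in a model of week (3 residual degrees of freedom). P-values were Benjamini-Hochberg adjusted over all genes tested, and levels are TMM-scaled CPM. Alternatives were other scalings and filters, DESeq2 1.42.0, voom in limma 3.58.1, fits with a replicate block, fits to the 4 libraries of a comparison or without each library, counts divided by 4 and an adjusted p under 0.01. The methods were tested on simulated data. Motifs and figures used Python 3.11.15, pandas 2.3.3 and matplotlib 3.10.9.

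The members and lists were chosen with earlier results of these data known. The rule for named genes takes Psmb5 to Psmb10, Psme1, Psme2, Psmc3ip, up to 8 called members per direction and comparison, the members at both ends of each role group at week 7, and up to 3 called genes per related list, direction and comparison. Tap1 was added for its overlap with Psmb9, and Nfe2l1, Irf1 and Nlrc5 are given at times outside the rule, as are other members, all after their values were seen. Some genes of the related lists are not reported here. Members that share exon bases with another gene numbered 15 of 48; copies and overlaps make such counts uncertain.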

Additional observations from a re-analysis of the deposited data

How the results depend on the processing

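The higher counts at week 2 stood at 2 or 3 under every scaling, filter and tool but scaling by total counts alone, which gave 5 (Psmb6, Psme1 and Psme2 joined). The lower count at week 2 (5) went to 1 with upper-quartile scaling and 0 with total counts alone. At week 7 against week 0 the lower count (1) went to 0 with total counts alone and to 2 (Psmc6 joined) with upper-quartile scaling, DESeq2, the unfiltered table, the 10-count minimum for all genes, limma voom and counts divided by 4. At week 7 against week 2 the higher count (2) went to 1 with upper-quartile scaling and with total counts alone. The lower count of that comparison (2) went to 6 with upper-quartile scaling, 5 with total counts alone, 4 with DESeq2 and 1 with only the 4 libraries compared. At an adjusted p under 0.01, all counts became 0 except the 2 higher at week 2. The causes were not tested.

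Leaving out 1 library gave 0 to 2 higher and 0 to 1 lower at week 7 against week 0, 2 to 3 higher and 0 to 5 lower at week 2, and 0 to 2 higher and 0 to 2 lower at week 7 against week 2. With a library left out, an arm had 1 sample, assumed to vary like the others. The differences of log2 ratios then ranged from 0.53 to 0.61 (week 2) and 0.34 to 0.36 (week 7) for Psmb8 to Psmb5, and from 0.72 to 0.91 and 0.6 to 0.78 for Psmb9 to Psmb6. For Psmb10 to Psmb7 they ranged from -0.09 to 0.22 and from 0.09 to 0.29. Between weeks 7 and 2 the ranges were -0.27 to -0.18, -0.22 to -0.03 and -0.03 to 0.28.

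Samples with the same number did not deviate together (correlations of the replicate differences of -0.00606, -0.0269 and -0.0552 between weeks). Such correlations cannot show whether samples with the same number were paired in handling. With the sample number as a replicate block, higher calls at week 7 against week 0 went from 2 to 1, lower calls at week 2 from 5 to 1 (Psmd6), and lower calls at week 7 against week 2 from 2 to 1 (Psmb1).

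Only 2 libraries a week were compared. No untreated mice of weeks 2 and 7 were analysed here, and week 2 also differs in sex.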

Other observations

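Supply of ubiquitin itself is a step before the proteasome that the comparisons above leave out. Of 6 genes for ubiquitin and its activating enzymes, 1 was called higher and 1 lower at week 7 against week 0, where 7.58% and 6.23% of all tested genes were. Ubb, a polyubiquitin gene, was at 257 and 262 CPM at week 0, then 259 and 262 at week 2 and lastly 234 and 215 at week 7, and its log2 fold change at week 7 was -0.21 (edgeR adjusted p = 0.022). That call was lost without week 0 replicate 1, week 0 replicate 2 or week 7 replicate 2. It was also lost with total counts alone (edgeR adjusted p = 0.0669) and with only the 4 libraries compared (0.0529). Uba1, the main ubiquitin-activating enzyme, was at 142 and 147 CPM at week 0, then 138 and 143 at week 2 and lastly 170 in both week 7 libraries. It was called higher at week 7 (log2 0.24, adjusted p = 0.0116; 0.0839 without week 0 replicate 1).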
